A study of Mus musculus with 9 samples.

Results

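Adult mouse cardiac fibroblasts that had received an adenovirus carrying a hairpin against junctophilin-2 (Ad-shJP2, 3 libraries) were compared with the same kind of cells that had received a virus carrying GFP (Ad-GFP, 3 libraries), 72 h after infection. Junctophilin-2, encoded by Jph2, is a membrane-binding protein best known for holding the cell membrane close to the calcium store of heart muscle cells, and the study asked what it does for calcium entry and activation of fibroblasts. The cells came from hearts of adult male C57BL/6N wildtype mice, were separated from the muscle cells by settling and brief attachment to plastic, and grown before infection. All 6 libraries therefore carry an adenovirus infection, the controls included. A further 3 libraries received a virus for junctophilin-2 itself (Ad-JP2) and serve here for the estimate of spread. No library received a virus with an unrelated hairpin, so changes that follow from the targeted gene and changes that follow from any hairpin cannot be told apart. The labels do not say whether the 3 libraries of a group came from separate cultures or animals, so the p-values measure the spread between these libraries, which may be technical.

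Expression is given in TPM, the deposited unit, a share of transcripts corrected for gene length and scaled to the same total in every library. Of 56953 genes in the table, 13624 reached 1 TPM in at least 3 of the 6 libraries and were tested, and 30932 stood at 0 in all 6. Differences are log2 values of Ad-shJP2 minus Ad-GFP, computed after adding 1 TPM, which understates the change of low genes. A gene "rose" or "fell" where its Benjamini-Hochberg adjusted p from limma was under 0.05. Low values placed the depth at roughly 40400000 to 45800000 reads for Ad-GFP and 21300000 to 32900000 reads for Ad-shJP2, and 13564 to 13621 against 13076 to 13160 genes reached 1 TPM. Libraries of 1 group correlated at 0.9928 to 0.9938 (Ad-GFP) and 0.9894 to 0.9912 (Ad-shJP2) across the tested genes, and libraries of different groups at 0.9615 to 0.9646. Genes are not independent replicates, so these correlations describe the libraries only. Just inside the level for testing was Mgarp, whose third-highest value was 1.001 TPM, and just outside it was Kdm6a with 0.999 TPM. Of the tested genes 110 reached 1 TPM in every Ad-shJP2 library and in no Ad-GFP library, and 328 the reverse. Such genes could be tested only through the group where they were high and had to differ, and they include 16 members of the lists below on the high side (Cxcl10, Oasl1, Oas2, Oas3, Ifit1, Cmpk2, Mx1, Mx2, Rsad2, Ifi44, H2-Q6, H2-Q7, Nlrc5, Cdkn1c, Ccne2 and Fosb) and 22 on the low side, of which Tgfbr1, Bmpr2 and Kdm5d are described below. Counts of lists with such members include them.

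Hairpins delivered by virus enter the cell's small RNA pathway, in which an exported hairpin is cut and loaded onto an Argonaute protein that recognises matching messages. Double-stranded RNA and viral DNA are also recognised by sensor proteins that switch on type I interferon. Secreted interferon acts through JAK kinases and STAT factors on a large set of antiviral genes, and dividing, matrix-producing and calcium-handling genes of fibroblasts respond to many other inputs. The results below follow that order, from the targeted gene through defence genes to growth, matrix, signalling, calcium, secretion and metabolism.

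The targeted message was slightly lower in the hairpin libraries. Jph2 stood at 132, 128 and 128 TPM in the Ad-GFP libraries and 116, 123 and 119 TPM in the Ad-shJP2 libraries. The ranges did not overlap, and the means were 129 ± 2.44 and 119.5 ± 3.09 TPM (SD, n = 3). An exact two-sided permutation test gave p = 0.1, the smallest that 3 against 3 libraries allow, and across all genes the log2 difference of -0.11 (SE 0.0484) did not pass in limma (adjusted p = 0.0708). It passed with quantile normalization (-0.13, adjusted p = 0.023) and in a fit of the 6 libraries alone (adjusted p = 0.016), while median-of-ratios scaling, which sets the typical gene to no change, left -0.01. The other junctophilins were under the level for testing, with group means of 0.454 and 0.431 TPM for Jph1, 0.0277 and 0.0383 TPM for Jph3, and 0.252 and 0.116 TPM for Jph4, in Ad-GFP and Ad-shJP2. The values are message levels at 72 h, and the protein was not measured here.

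The messages of the whole cell differed far more than that of Jph2. Of 13624 genes, 8270 (60.7%) passed, 3103 of them higher (22.8%) and 5167 lower (37.9%) in Ad-shJP2. At least 2-fold differences were fewer, with 362 genes higher (2.66%) and 1603 lower (11.8%). For 9012 genes (66.1%) no library of 1 group lay within the range of the other, 3462 of them higher (25.4%) and 5550 lower (40.7%). The median over all tested genes was -0.10 on the log2 scale, and median-of-ratios scaling and quantile normalization moved it up by 0.09 and 0.13. Of the genes called, 62.5% were lower as deposited, 51.4% with median-of-ratios scaling, 47.3% with quantile normalization and 68.6% after a correction for GC content and gene length, in which each library's dependence on both is removed. Counts of gene lists below are therefore to be read against 22.8% higher and 37.9% lower, and a small difference in either direction depends on the scaling. Statements below that the groups of a gene did not overlap are to be read against 66.1%. Most such genes were named for the size of their change. For the 14 largest rises and 14 largest falls, no overlap was itself a condition of naming, so it is no result for them.

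**Figure D1:**
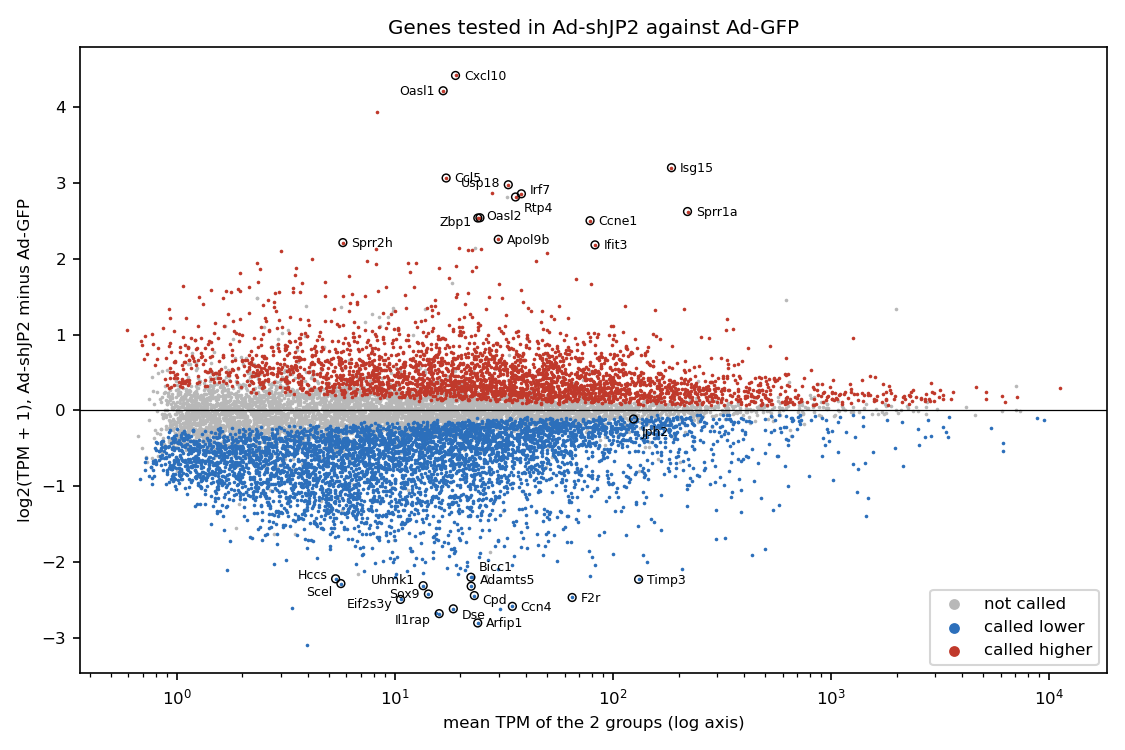
Each point is 1 of the 13624 tested genes, plotted by its mean TPM over the 6 libraries (log axis) and by its log2 difference, Ad-shJP2 minus Ad-GFP. The named genes with the largest rises and falls and Jph2 are marked: Cxcl10 lies highest of those named at 4.42, Arfip1 lowest at -2.80, and Jph2 near the middle at -0.11.

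Most tested fibroblast markers were lower in the hairpin libraries, and most tested macrophage markers higher as deposited, while both lists were present throughout. Of 15 tested fibroblast markers, 1 rose and 12 fell, and the summed level of the list was 11972 to 12078 TPM in Ad-GFP and 7981 to 8215 TPM in Ad-shJP2. By this sum the fibroblast label holds in both groups, at a lower level in Ad-shJP2. The other fibroblast markers were under the level for testing. Their means in Ad-GFP and Ad-shJP2 were 1.13 and 0.198 TPM for Lum, 0.301 and 0.06 TPM for Fap, and 0.373 and 0.270 TPM for Wt1. Tbx20 and Tcf21, transcription factors of the cardiac and epicardial lineages, fell by 1.46 and 1.39, and Tcf21 stood at 114, 116 and 109 TPM in Ad-GFP and 43.3, 45.8 and 38.4 TPM in Ad-shJP2. Of 15 tested macrophage and leukocyte markers 11 rose and 2 fell, with sums of 3724 to 3771 TPM and 4297 to 4362 TPM. After the GC and length correction these counts became 3 and 7. Among members under the level for testing, Cd3e of T cells stood at 0. Ptprc had means of 0.592 and 0.240 TPM in Ad-GFP and Ad-shJP2, and Cd79a of 0.029 and 0.0847 TPM. In bulk libraries, fewer cells of a type and less RNA per cell cannot be told apart. Fcgr1, a receptor for antibodies, rose by 1.09, whereas Mrc1, the mannose receptor of tissue macrophages, fell by 1.62.

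Other cell types were at low levels. Cardiomyocyte markers summed to 49.4 to 49.6 TPM in Ad-GFP and 33.3 to 35.7 TPM in Ad-shJP2, endothelial markers to 67.6 to 69.4 TPM and 47.5 to 59.6 TPM, and epicardial markers to 96.3 to 100.3 TPM and 79.4 to 81.7 TPM. Schwann and neural markers summed to 364 to 370.1 TPM and 230.2 to 248 TPM. Pericyte and smooth muscle markers summed to 194 to 197 TPM and 338 to 342 TPM, with 3 higher and 2 lower of 6 tested (12 in the list) and Kcnj8, Higd1b and Vtn at 0. Cnn1 alone went from 101 to 204 TPM within that sum, while Notch3 (-0.80) and Myh11 (-0.32, adjusted p = 0.124 after the GC and length correction) fell. The haemoglobin genes Hba-a1, Hbb-bs and Hbb-bt and the red cell gene Alas2 stood at 0. The part of any of these cells in the results below was not tested.

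The largest rises were antiviral genes together with the small proline-rich genes Sprr1a and Sprr2h and cyclin E1. In order of log2 difference they were Cxcl10 (4.42), Oasl1 (4.22), Isg15 (3.20), Ccl5 (3.06), Usp18 (2.98), Irf7 (2.86), Rtp4 (2.81), Sprr1a (2.62), Zbp1 (2.54), Oasl2 (2.54), Ccne1 (2.50), Apol9b (2.26), Sprr2h (2.21) and Ifit3 (2.18). Sprr1a, a small proline-rich protein of cornified cells, stood at 61.2, 61.8 and 59.1 TPM in the Ad-GFP libraries and 382, 367 and 389 TPM in the Ad-shJP2 libraries. Apol9b and Sprr2h have near-identical copies in the mouse genome among which reads can be divided, so their values are uncertain. The 14 largest falls were more varied: Arfip1 (-2.80), Il1rap (-2.68), Dse (-2.62), Ccn4 (-2.58), Eif2s3y (-2.49), F2r (-2.47), Cpd (-2.44), Sox9 (-2.42), Adamts5 (-2.32), Uhmk1 (-2.31), Scel (-2.28), Timp3 (-2.23), Hccs (-2.22) and Bicc1 (-2.20). Among them are a Golgi trafficking protein (Arfip1), a subunit of the interleukin-1 receptor (Il1rap), an enzyme of dermatan sulfate (Dse), a cartilage transcription factor (Sox9) and an aggrecan-cutting protease (Adamts5). These 28 genes were named for the size of their change, among called genes whose groups did not overlap, which is a description.

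**Figure D2:**
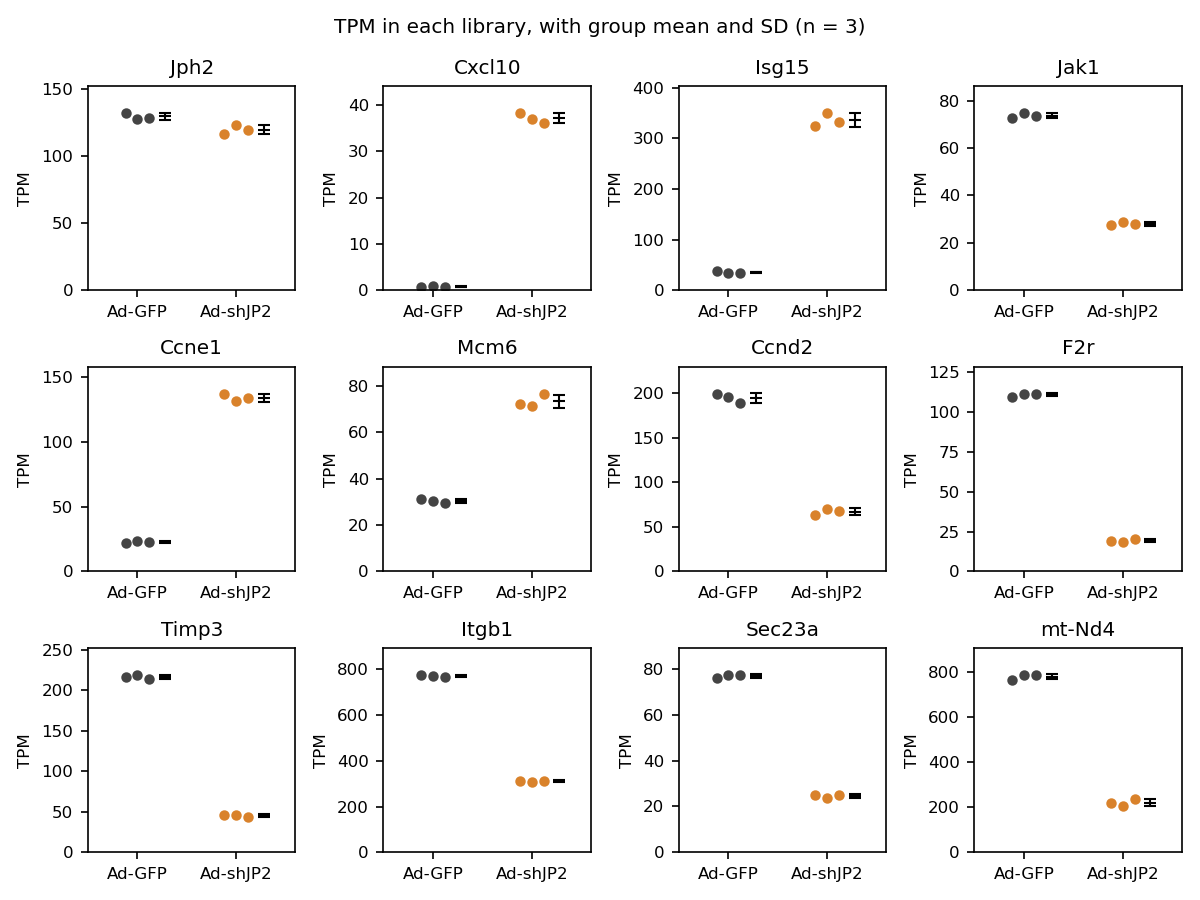
TPM of 12 genes in each library, with dots for libraries and bars for the mean and SD (n = 3) of Ad-GFP and Ad-shJP2, each panel from 0. The groups are apart in every panel, closest for Jph2, and widest apart in fold for Cxcl10.

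Sensors of foreign RNA were divided, with the largest rises in Zbp1 and Dhx58. Of 11 tested RNA sensors and adaptors 6 rose and 2 fell (median 0.35). Zbp1, which binds Z-form nucleic acid, stood at 6.89, 6.68 and 5.95 TPM in the Ad-GFP libraries and 42.1, 41.9 and 43.8 TPM in the Ad-shJP2 libraries. Dhx58 (LGP2), a helicase that tunes RNA sensing, stood at 2.23, 2.44 and 2.55 TPM in the Ad-GFP libraries and 14.1, 12.2 and 11.002 TPM in the Ad-shJP2 libraries. Adar, which edits double-stranded RNA, rose by 0.89. All Ad-shJP2 libraries lay above all Ad-GFP libraries for these 3. The kinase Eif2ak2 (PKR) fell by 0.53 and the adaptor Ticam1 by 0.39, while the helicase gene Rigi (-0.08) and its adaptor Mavs (-0.03) did not pass. DNA sensors were near the shares over all genes, with 2 higher and 3 lower of 9 tested (13 in the list) against 22.8% and 37.9%. The exonuclease Trex1 (1.06) and the adaptor Sting1 (0.47) were higher, and the kinase Tbk1 (-1.33), Aim2 (-0.72) and Ifi211 (-0.53) were lower. The median of the DNA sensors, -0.11, turned to 0.07 with quantile normalization and to 0.12 after the GC and length correction.

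Interferon messages themselves were close to the limit of detection. None of 9 interferon genes could be tested, 8 of them stood at 0 in all 6 libraries, and Ifnb1 was at 0 except for 0.463 TPM in Ad-shJP2 replicate 3. A message of 1000 bases needed 0.0872 to 0.0984 TPM in Ad-GFP and 0.113 to 0.176 TPM in Ad-shJP2 to hold 3 reads, which covers counting error only. Of 19 receptor and transduction genes 12 rose and 5 fell (median 0.22), and 8 and 4 after the GC and length correction. The factors that carry the signal to DNA were higher. Irf7 stood at 8.57, 7.95 and 8.93 TPM in the Ad-GFP libraries and 68.3, 68.3 and 66.3 TPM in the Ad-shJP2 libraries, and Stat2 at 7.68, 7.52 and 7.25 TPM in Ad-GFP and 28.6, 31.2 and 32.2 TPM in Ad-shJP2 (1.90), with the Ad-shJP2 values above all controls for both. Irf9 and Irf1 rose by 1.10 and 0.89. The feedback inhibitor Usp18, which removes ISG15 from proteins, went from 6.696 ± 0.0609 to 59.6 ± 2.11 TPM (SD, n = 3). Jak1, a kinase of the interferon receptor, stood at 72.8, 74.9 and 73.4 TPM in the Ad-GFP libraries and 27.4, 28.97 and 27.98 TPM in the Ad-shJP2 libraries, all below the controls. Tyk2, the receptor's other kinase, did not pass (0.09). The receptor chain Ifnar1 fell by 0.58 and the other chain, Ifnar2, did not pass (0.04).

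Most antiviral effectors rose. Of 9 genes in the list of the OAS family, which makes the 2-5A alarm molecule, 8 rose, with a median of 1.87, and 3 of these could be tested only through their Ad-shJP2 values. Oasl1 stood at 0.899, 0.714 and 0.802 TPM in the Ad-GFP libraries and 31.8, 33.5 and 32.2 TPM in the Ad-shJP2 libraries, and Oasl2 at 6.38, 5.96 and 6.71 TPM in Ad-GFP and 38.4, 42.1 and 44.6 TPM in Ad-shJP2. Oasl1 is among those tested only through Ad-shJP2 and had to differ, so its gap is a description. No Ad-shJP2 library came near the controls for Oasl2. Of 4 tested IFIT genes, whose proteins bind foreign RNA ends, 3 rose. Ifit3 stood at 29.4, 28.95 and 29.4 TPM in the Ad-GFP libraries and 139, 131 and 138 TPM in the Ad-shJP2 libraries, and Ifit1 rose by 0.69, while Ifit2 fell by 0.55, a difference of -0.06 after the GC and length correction (adjusted p = 0.74). Ifit3 and Ifit3b, and Oas1a with its copies, are near-identical and their separate values are uncertain. Of 26 tested other effectors (30 in the list) 22 rose and the rest did not pass (median 1.22), 15 of them at least 2-fold, and 5 could be tested only through Ad-shJP2. Isg15, a ubiquitin-like protein, stood at 37.3, 34.9 and 34.6 TPM in the Ad-GFP libraries and 325, 351 and 332 TPM in the Ad-shJP2 libraries, 9.42-fold higher. Rtp4 went from 8.15 to 63.4 TPM and the nucleotide kinase Cmpk2 from 0.514 to 5.49 TPM. Among the interferon-inducible GTPases, which act on pathogen compartments, 4 of 6 tested (15 in the list) rose (median 0.97), led by Igtp with 1.89, 2.76 and 2.74 TPM in Ad-GFP and 14.1, 13.7 and 14.1 TPM in Ad-shJP2.

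**Figure D3:**
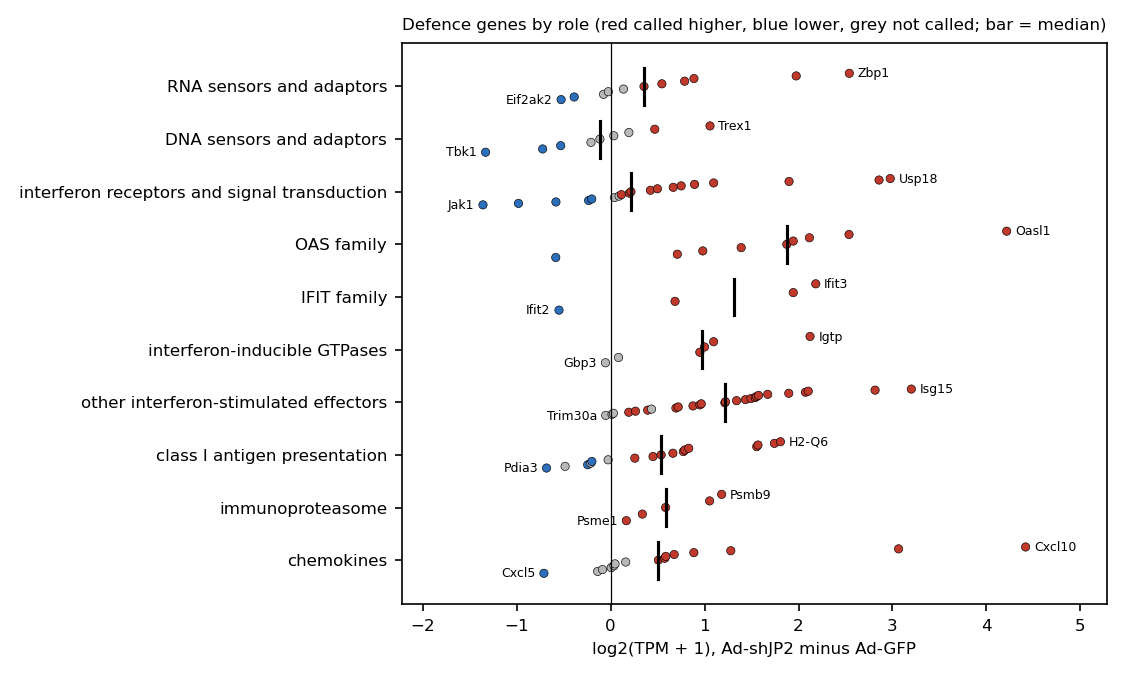
Log2 differences, Ad-shJP2 minus Ad-GFP, of defence genes grouped by role, with a dot for each tested gene and a bar for the median of its role. The medians of the OAS family (1.87), the IFIT family (1.31) and other effectors (1.22) lie above those of the RNA sensors (0.35), the receptors and transduction genes (0.22) and the DNA sensors (-0.11). These medians include genes tested only through Ad-shJP2: 3 of the OAS list, 1 of the IFIT list and 5 of the other effectors. The receptors and transduction genes include 1 tested only through Ad-GFP.

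Interferon-stimulated genes are switched on through short elements in their promoters that hold a repeat of GAAA, which STAT and IRF factors bind. The stretches of 250 bases before the start of 3 of the genes with the largest rises are shown because they hold matches to the pattern GAAA, any 2 bases, GAAA, searched on both strands and shown in capitals, with overlapping matches joined. They are from RefSeq on build GRCm38.p6, each 5′ to 3′ on the gene's strand: Cxcl10 at chr5:92348890-92349139, minus strand, Isg15 at chr4:156200819-156201068, minus strand, and Ifit3 at chr19:34583279-34583528, plus strand.
Cxcl10: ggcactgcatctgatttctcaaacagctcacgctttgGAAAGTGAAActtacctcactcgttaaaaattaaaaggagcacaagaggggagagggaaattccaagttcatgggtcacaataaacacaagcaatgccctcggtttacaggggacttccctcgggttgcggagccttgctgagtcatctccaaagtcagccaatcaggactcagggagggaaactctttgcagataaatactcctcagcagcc
Isg15: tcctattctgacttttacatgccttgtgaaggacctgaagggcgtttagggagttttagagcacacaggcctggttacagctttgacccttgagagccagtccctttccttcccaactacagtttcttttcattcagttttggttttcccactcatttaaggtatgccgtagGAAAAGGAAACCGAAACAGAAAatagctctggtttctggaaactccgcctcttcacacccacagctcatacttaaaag
Ifit3: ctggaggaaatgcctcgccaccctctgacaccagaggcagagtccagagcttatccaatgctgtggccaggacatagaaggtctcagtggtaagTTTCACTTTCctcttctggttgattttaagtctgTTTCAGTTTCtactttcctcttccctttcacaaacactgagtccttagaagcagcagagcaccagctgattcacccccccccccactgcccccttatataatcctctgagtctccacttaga
The match of Cxcl10 begins 213 bases before the start, those of Isg15 begin 78, 72 and 66 bases before, and those of Ifit3, on the opposite strand, 156 and 122 bases before. Of 32851 windows of 300 bases in the table, reaching 50 bases past the start, 3.44% held a match, and 3.75% of 9157 windows of tested genes, which cover 67.3% of these genes. All 6 tested GTPases, 3 of 4 IFIT genes, 7 of 21 other effectors and 4 of 14 class I genes with a window held one, as did 4 of 14 genes of elastic fibres, a list of genes that mostly fell. Of the 14 genes with the largest rises 10 had a window, and 4 of these 10 held a match. A match is a description of the letters and not a site of binding.

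Most class I antigen presentation genes and all immunoproteasome genes rose, while the summed level of the class I list was slightly lower. Of 17 class I genes 11 rose and 3 fell (median 0.54), and the summed level was 3578 to 3655 TPM in Ad-GFP and 3403 to 3448 TPM in Ad-shJP2. Tap1, which carries peptides to class I molecules, stood at 11.1, 10.8 and 9.59 TPM in the Ad-GFP libraries and 33.1, 31.5 and 33.4 TPM in the Ad-shJP2 libraries. The class I heavy chains H2-Q6 (1.81), H2-Q4 (1.74) and H2-Q7 (1.57) led the list. H2-Q6, H2-Q7 and Nlrc5 could be tested only through their Ad-shJP2 values. The H2-Q genes resemble each other and reads can be divided between them. B2m, the light chain, fell by 0.20, and the folding proteins Pdia3 and Calr by 0.68 and 0.24. All 5 immunoproteasome genes rose (median 0.58), and 3 did after the GC and length correction. Psmb9, a catalytic subunit, stood at 2.77, 2.99 and 2.39 TPM in the Ad-GFP libraries and 8.27, 7.04 and 6.99 TPM in the Ad-shJP2 libraries.

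Most of the chemokine genes that changed rose, led by Cxcl10, and NF-κB pathway genes went both ways in a balance that turned with the scaling. Cxcl10, which draws T cells, stood at 0.809, 0.928 and 0.635 TPM in the Ad-GFP libraries and 38.4, 37.04 and 36.1 TPM in the Ad-shJP2 libraries, 47.02-fold higher (log2 4.42, SE 0.124). It could be tested only through its Ad-shJP2 values, so its difference is given as a description. Of 15 tested chemokines (20 in the list) 8 rose, Ccl5 (3.06) and Ccl4 (1.28) among them, and Cxcl5 fell (-0.71). Ccl2, which attracts monocytes, did not pass (0.03). Of 21 NF-κB genes 5 rose and 10 fell, and 2 and 14 after the GC and length correction. With median-of-ratios scaling 7 rose and 6 fell, and with quantile normalization 7 rose and 5 fell. The falls numbered 6 without Ad-GFP replicate 2 or without Ad-shJP2 replicate 3. Among the falls were kinases that activate the pathway: Chuk (IKKα, -1.55) and Map3k7 (TAK1, -1.28), and the TAK1 partner Tab2 (-1.26). The adaptor Myd88 (0.63) and the subunits Relb (0.36) and Rela (0.34) were higher. The macrophage marker sums given above, 3724 to 3771 TPM and 4297 to 4362 TPM, moved in the same direction as the defence genes, and their part in these counts was not tested.

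Genes that process hairpins and small RNAs were mostly lower as deposited. Of 15 tested genes, 3 rose and 9 fell (median -0.41), and 3 and 5 after the GC and length correction. Dicer1, which cuts hairpins, stood at 11.7, 12.01 and 12.6 TPM in the Ad-GFP libraries and 5.56, 7.196 and 5.41 TPM in the Ad-shJP2 libraries, and Ago1, an Argonaute, at 11.02, 12.2 and 11.01 TPM in Ad-GFP and 4.35, 5.13 and 4.51 TPM in Ad-shJP2, with the Ad-shJP2 libraries below all controls for both. The deadenylation scaffold Cnot1 fell by 1.16. Xpo5, the exporter of hairpins, its partner Ran and the Dicer cofactor Tarbp2 rose by 0.37, 0.44 and 0.81. Drosha, which frees hairpins from long nuclear RNA, did not pass (0.03). Ago2, the Argonaute that cuts its target, was at -0.36 as deposited and at 0.09 after the correction (adjusted p = 0.141).

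Genes of DNA replication rose together, and so did most drivers of entry into S phase. Of 37 replication genes 29 rose and the other 8 did not pass (median 0.73). After the GC and length correction 32 rose and 1 fell. Orc1, of the origin recognition complex, stood at 2, 2.32 and 1.75 TPM in the Ad-GFP libraries and 7.85, 7.599 and 7.297 TPM in the Ad-shJP2 libraries. Cdt1, which loads the MCM helicase, stood at 11.1, 11.8 and 10.2 TPM in the Ad-GFP libraries and 30.9, 30.5 and 30.9 TPM in the Ad-shJP2 libraries. Mcm6, a subunit of that helicase, stood at 31.3, 30.2 and 29.6 TPM in the Ad-GFP libraries and 72.1, 71.1 and 76.6 TPM in the Ad-shJP2 libraries. For all 3 the lowest Ad-shJP2 library was above the highest control. Lig1, which joins the new strands, rose by 1.34 and Cdc6, which works with Cdt1, by 0.62.

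Cyclin E1 led the genes of the G1 to S transition, while the D cyclins were divided. Of 27 genes 17 rose and 8 fell (median 0.36). Ccne1 stood at 22.3, 23.9 and 22.5 TPM in the Ad-GFP libraries and 137, 131 and 134 TPM in the Ad-shJP2 libraries, 5.87-fold higher (limma adjusted p = 4.7e-09). Its partner kinase Cdk2 stood at 13.3, 13.98 and 13.9 TPM in Ad-GFP and 41.8, 40.3 and 39.5 TPM in Ad-shJP2, also without overlap. The atypical repressors E2f7 (1.27) and E2f8 (1.01) and the inhibitor Cdkn1c (1.28) rose too. Ccnd2 stood at 199, 196 and 188 TPM in the Ad-GFP libraries and 63.1, 70.4 and 67.8 TPM in the Ad-shJP2 libraries, all hairpin libraries below all controls, and Ccnd1 fell by 0.69, whereas Ccnd3 rose by 0.50. The pocket protein Rbl2 and the inhibitor Cdkn2b, both brakes on the cycle, fell by 1.31 and 1.14.

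E2F factors, which switch on many replication genes at the start of S phase, bind the letters TTTCCCGC or TTTGGCGC. The 250 bases before the start are shown for 2 replication genes that rose and hold one of these 8-base words, in capitals, on either strand, from RefSeq on GRCm38.p6: Cdc6 at chr11:98907901-98908150, plus strand, and Mcm6 at chr1:128359706-128359955, minus strand.
Cdc6: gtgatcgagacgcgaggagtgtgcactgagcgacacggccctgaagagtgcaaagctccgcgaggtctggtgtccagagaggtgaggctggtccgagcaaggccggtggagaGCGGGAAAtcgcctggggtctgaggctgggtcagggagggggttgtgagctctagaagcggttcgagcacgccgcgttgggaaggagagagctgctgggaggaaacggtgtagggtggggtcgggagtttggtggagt
Mcm6: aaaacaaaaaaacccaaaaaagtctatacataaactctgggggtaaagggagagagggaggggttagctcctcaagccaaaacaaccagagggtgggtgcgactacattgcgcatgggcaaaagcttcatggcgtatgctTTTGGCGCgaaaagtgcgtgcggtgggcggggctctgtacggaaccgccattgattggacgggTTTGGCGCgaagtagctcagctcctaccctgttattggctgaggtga
The match of Cdc6 begins 138 bases before the start, and those of Mcm6 begin 110 and 47 bases before. Such a match was in 1.56% of the 32851 windows and in 3.34% of the 9157 windows of tested genes. Only 28 of the 37 tested replication genes (75.7%) had a window, under the 80% set for giving a share over the list. Of these 28 windows 9 held a match, a count that does not extend to the genes without a window.

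Genes of mitosis mostly rose, with the cytokinesis genes Kif23, Anln and Ect2 among the exceptions. Of 27 tested genes (37 in the list) 16 rose and 5 fell (median 0.52). The kinase Aurka stood at 31.5, 30.6 and 30.4 TPM in the Ad-GFP libraries and 83.3, 79.6 and 82.6 TPM in the Ad-shJP2 libraries, and Ccnb1, the mitotic cyclin, rose by 1.11. Kif23 stood at 8.998, 9.85 and 8.004 TPM in the Ad-GFP libraries and 2.46, 3.73 and 2.49 TPM in the Ad-shJP2 libraries. It is a motor of the central spindle, and Anln (-0.99) and Ect2 (-0.86), which build and place the cleavage ring, were lower with it. Replication-dependent histones, which lack long tails of A and are poorly captured by this kind of library, went both ways, 2 higher and 3 lower of 11 tested (15 in the list). Of 26 genes of the p53 pathway 11 rose and 5 fell, with Sesn2 (0.90), Trp53 itself (0.79) and the death gene Bbc3 (0.74) highest, and Ccng1 (-0.60), Polk (-0.60) and Zmat3 (-0.57) lowest.

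Collagens and elastic fibre genes fell broadly, and among the enzymes that finish collagen the largest changes were falls. Of 19 tested collagen genes 14 fell and the other 5 did not pass (median -0.46), 13 with 1 rise after the GC and length correction. Col4a5 (-1.63), Col8a1 (-1.39) and Col12a1 (-1.33) fell most. Of 27 genes for collagen folding and crosslinking 16 fell and 2 rose (median -0.14), and 8 fell and 10 rose with median-of-ratios scaling. Lox, the enzyme that crosslinks collagen and elastin, stood at 341, 332 and 336 TPM in the Ad-GFP libraries and 76.4, 79.5 and 78.98 TPM in the Ad-shJP2 libraries. Plod2, which hydroxylates lysines of collagen ends, stood at 17.9, 20.3 and 19.3 TPM in the Ad-GFP libraries and 4.22, 3.44 and 3.29 TPM in the Ad-shJP2 libraries. The groups were wide apart for both. Mia3, which carries collagen out of the endoplasmic reticulum, fell by 0.86, and Colgalt1, which adds galactose, rose by 0.37. Of 16 genes of elastic fibres 12 fell and the other 4 did not pass, with Fbn1 (-1.03), Efemp1 (-0.70) and Emilin1 (-0.46) lowest.

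Matricellular proteins, which sit in the matrix and signal to cells, also fell: 16 of 19, with 2 higher (median -0.45). Ccn4, a target of Wnt signalling, stood at 60.7, 59.6 and 59.7 TPM in the Ad-GFP libraries and 9.18, 9.42 and 8.94 TPM in the Ad-shJP2 libraries. Postn, a marker of activated fibroblasts, stood at 88.6, 89.5 and 89.1 TPM in the Ad-GFP libraries and 23.4, 19.9 and 22.2 TPM in the Ad-shJP2 libraries. Thbs1, an activator of TGF-β, fell by 1.39. The Ad-shJP2 libraries were below all controls for these genes. Tnc (0.47) and Smoc2 (0.26) were the members that rose.

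Proteases of the matrix and their inhibitors changed in both directions. Of 23 tested genes, 5 rose and 16 fell (median -0.47). Timp3, an inhibitor bound to the matrix, stood at 217, 219 and 215 TPM in the Ad-GFP libraries and 46.5, 46.5 and 43.7 TPM in the Ad-shJP2 libraries, 4.76-fold lower. Adamts5 stood at 39.003, 36.9 and 38.05 TPM in the Ad-GFP libraries and 6.98, 6.94 and 6.53 TPM in the Ad-shJP2 libraries, and its relative Adamts1 fell by 2.09. Both enzymes cut proteoglycans. Plau, the urokinase that starts plasmin, stood at 56.6, 55.7 and 56.7 TPM in the Ad-GFP libraries and 115, 113 and 116 TPM in the Ad-shJP2 libraries, and the proteases Mmp3 (0.53) and Adamts4 (0.31) rose.

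Most attachment genes fell, while the fibronectin receptor's α chain rose. Of 23 integrin and focal adhesion genes 16 fell and 2 rose (median -0.40). Itgb1, the β chain shared by most integrins, stood at 774, 769.6 and 763 TPM in the Ad-GFP libraries and 312, 306 and 312 TPM in the Ad-shJP2 libraries. Itga5, which joins it to bind fibronectin, stood at 213, 212 and 216 TPM in the Ad-GFP libraries and 452, 438 and 449 TPM in the Ad-shJP2 libraries. The chains of this receptor thus moved in opposite directions, each with no overlap of the groups. Itga6, which binds laminin, fell by 0.97 and the actin linker Tns1 by 0.93, and the kinase Ilk rose by 0.27.

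Contractile genes were divided. Of 23 tested genes, 8 rose and 13 fell (median -0.32). Cnn1, a regulator of smooth muscle actin, stood at 105, 100.2 and 97.3 TPM in the Ad-GFP libraries and 202, 206 and 206 TPM in the Ad-shJP2 libraries, and Actg2 and Myl9 rose by 0.40 and 0.33. Cald1, an actin-binding brake on myosin, stood at 173, 175 and 176 TPM in the Ad-GFP libraries and 52.6, 53.8 and 59.7 TPM in the Ad-shJP2 libraries, and Cdh11 and Actn1 fell by 1.47 and 0.99. The pericyte and smooth muscle list shares Cnn1, and its values in the same libraries are given above. Of 22 genes of the YAP and TEAD pathway, through which stiffness and stretch act on genes, 17 fell and 2 rose (median -0.53). Its target Ankrd1 stood at 675, 705 and 681 TPM in the Ad-GFP libraries and 181, 187 and 181 TPM in the Ad-shJP2 libraries, and the kinase components Mob1a and Lats2 fell by 1.70 and 1.32. Tead4 (0.34) and Tead2 (0.19) were the ones that rose, and Tead2 turned to -0.12 after the GC and length correction.

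Most genes of the TGF-β pathway fell, with a rise of Tgfb1. Of 25 genes 18 fell and 4 rose (median -0.47). The ligand Tgfb2 stood at 17.5, 16.3 and 18.5 TPM in the Ad-GFP libraries and 5.43, 6.41 and 5.56 TPM in the Ad-shJP2 libraries, while Tgfb1 stood at 69.4, 71.5 and 67.4 TPM in the Ad-GFP libraries and 108, 106 and 105 TPM in the Ad-shJP2 libraries. These relatives moved in opposite directions with no overlap of the groups. The receptor Tgfbr1, tested only through its Ad-GFP values, stood at means of 2.19 and 0.354 TPM, and the inhibitory factors Smad6 and Smad7 fell by 1.41 and 1.22. In the related BMP pathway 9 of 12 tested genes (18 in the list) fell and 1 rose, with 6 lower after the GC and length correction. The ligand Gdf6 stood at 232, 229 and 228 TPM in the Ad-GFP libraries and 55.3, 57.5 and 57.3 TPM in the Ad-shJP2 libraries, and Bmp4 fell by 1.66. The receptor Bmpr2, also tested only through Ad-GFP, was -0.62 as deposited and 0.13 after the correction (adjusted p = 0.343). The decoy receptor Bambi rose by 0.59.

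Wnt genes and growth factor genes mostly fell. Of 26 tested Wnt pathway genes (34 in the list) 18 fell and 6 rose (median -0.59). The receptor Fzd4 (-1.35), the secreted inhibitor Sfrp1 (-1.29) and the transducer Dvl3 (-0.998) fell most, and the ligand Wnt5b (0.53), its receptor Ror2 (0.42) and Axin1 (0.41) rose. Of 25 tested growth factors and receptor kinases (34 in the list) 16 fell and 3 rose (median -0.41). Ereg, a ligand of the EGF receptor, fell by 1.66 and another such ligand, Hbegf, rose by 0.62. Pdgfa, a mitogen for fibroblasts, stood at 26.6, 25.1 and 29.5 TPM in the Ad-GFP libraries and 10.7, 11.3 and 11.4 TPM in the Ad-shJP2 libraries, all hairpin libraries below the controls.

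Receptors and ligands of the interleukin-6 and interleukin-1 families mostly fell. Of 13 tested genes (18 in the list) 8 fell and 1 rose, the last being the interleukin-1 receptor antagonist Il1rn (0.44). Il1rap stood at 28.8, 28.6 and 27.6 TPM in the Ad-GFP libraries and 3.41, 3.27 and 4.11 TPM in the Ad-shJP2 libraries. Il6 stood at 35.1, 42.8 and 35.8 TPM in the Ad-GFP libraries and 6.87, 7.67 and 7.82 TPM in the Ad-shJP2 libraries. Osmr, the receptor of oncostatin M, fell by 1.71. The interleukin-6 message and the interferon-stimulated genes thus moved in opposite directions. Among G protein-coupled receptors, 3 rose and 5 fell of 11 tested (22 in the list), against 22.8% and 37.9% of all genes. Their median was -0.04 (0.06 under median-of-ratios scaling and 0.10 under quantile normalization). F2r, the thrombin receptor PAR1, stood at 109.6, 111 and 111 TPM in the Ad-GFP libraries and 19.2, 18.5 and 20.1 TPM in the Ad-shJP2 libraries, 5.76-fold lower. S1pr3, a receptor for sphingosine 1-phosphate, stood at 6.68, 7.02 and 6.24 TPM in the Ad-GFP libraries and 33.1, 31.8 and 33.4 TPM in the Ad-shJP2 libraries. Lpar1, for lysophosphatidic acid, fell by 1.99, and the adenosine receptor Adora2b rose by 1.03.

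Early response factors went both ways and Krüppel-like factors mostly fell. Of 17 AP-1 and early factors 10 rose and 6 fell (median 0.21), and 6 and 7 after the GC and length correction. Fosl1 and Atf3, AP-1 family members raised by stress and growth signals, rose by 1.21 and 1.14, and the actin-sensing factor Srf by 0.75. Fosl2 (-0.42), Ier3 (-0.34) and Egr1 (-0.30) fell. Of 11 tested Krüppel-like factors (15 in the list) 6 fell and 1 rose. Klf6 stood at 25.2, 22.8 and 24.5 TPM in the Ad-GFP libraries and 6.401, 5.299 and 6.05 TPM in the Ad-shJP2 libraries, and Klf3 and Klf4 fell by 1.14 and 1.14, below the controls in every hairpin library.

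Calcium entry was the process the study was built around, and most of its genes were lower. In store-operated entry, STIM proteins sense an empty store and open ORAI channels of the cell membrane. Of 15 tested genes (20 in the list) 10 fell and 3 rose (median -0.36), with 10 and 1 after the GC and length correction. The sensor Stim2 stood at 13.3, 13.8 and 15.8 TPM in the Ad-GFP libraries and 3.302, 4.21 and 4.28 TPM in the Ad-shJP2 libraries. Stim1 stood at 45.6, 44.4 and 41.7 TPM in the Ad-GFP libraries and 29.1, 31.4 and 29.7 TPM in the Ad-shJP2 libraries, a fall of 0.53. No hairpin library reached the lowest control for either sensor. Of the channel genes, Orai2 rose by 0.15. Asph, whose locus also gives the junctional protein junctate, fell by 1.22 and the release channel Itpr2 by 0.95, while Itpr3 rose by 0.38.

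Pumps, exchangers and calcineurin genes fell too. Of 17 tested pump, exchanger and release genes (23 in the list) 12 fell and 1 rose (median -0.28). Slc8a1, the sodium-calcium exchanger, stood at 4.39, 4.33 and 4.71 TPM in the Ad-GFP libraries and 1.99, 1.35 and 1.55 TPM in the Ad-shJP2 libraries, and the Golgi pump Atp2c1 at 24.999, 28.02 and 25.1 TPM in Ad-GFP and 9.39, 10.9 and 13.3 TPM in Ad-shJP2. Hairpin libraries were below the controls for both. The store pump Atp2a2 (SERCA2) was -0.21 as deposited and 0.06 after the GC and length correction (adjusted p = 0.084). Slc8b1, the mitochondrial exchanger, rose by 0.59. Of 18 genes of calcineurin and NFAT, which turn calcium into gene expression, 13 fell and 1 rose (median -0.41). The catalytic subunit Ppp3cb stood at 16.2, 18.1 and 17.4 TPM in the Ad-GFP libraries and 5.96, 5.92 and 6.11 TPM in the Ad-shJP2 libraries, and its calcium-binding partner Ppp3r1 and the factor Nfatc3 fell by 1.17 and 1.20.

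Genes of the early secretory pathway fell almost throughout. Of 33 genes for transport between the endoplasmic reticulum and the Golgi 28 fell and 1 rose (median -0.38). Sec23a, of the coat of outgoing vesicles, stood at 75.8, 77.4 and 77.2 TPM in the Ad-GFP libraries and 24.99, 23.5 and 25.1 TPM in the Ad-shJP2 libraries. Its close relative Sec23b rose by 0.29. The tether Uso1 stood at 19.1, 19.2 and 19.2 TPM in the Ad-GFP libraries and 4.79, 4.18 and 4.77 TPM in the Ad-shJP2 libraries, and the cargo receptor Lman1 fell by 1.34. Of 26 chaperones and genes of the unfolded protein response 17 fell and 5 rose (median -0.24). Hspa5 (BiP) stood at 424, 428 and 426 TPM in the Ad-GFP libraries and 179.8, 164 and 168 TPM in the Ad-shJP2 libraries. Hsp90b1 stood at 57.4, 59.8 and 60.3 TPM in the Ad-GFP libraries and 17.1, 16.2 and 15.5 TPM in the Ad-shJP2 libraries. Both chaperones were below all controls, whereas the stress factors Atf4 (0.53) and Ddit3 (0.33) rose. Of 24 cytosolic chaperones 12 fell and 7 rose, with Hspa4 (-1.74), Dnaja1 (-1.69) and Hsp90aa1 (-1.33) lowest and Ahsa1 (0.49) and Stip1 (0.49) highest.

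Protein turnover genes differed by kind. Of 32 ubiquitin-specific proteases 19 fell and 2 rose (median -0.55), 11 of them at least 2-fold lower. Usp46 (-1.81), Usp47 (-1.48) and Usp8 (-1.45) led the falls, and Usp36 (0.36) and Usp39 (0.35) were the rises. Constitutive proteasome genes had 15 rises and 5 falls of 31, 23 rises with median-of-ratios scaling, but 8 and 13 after the GC and length correction, which turned the median from 0.10 to -0.04. Psmd1, a scaffold of the regulatory particle, fell by 1.04. Lysosome and autophagy genes were near the shares over all genes, with 7 higher and 10 lower of 30 against 22.8% and 37.9%, with a median of -0.04 (0.06 under median-of-ratios scaling). Atp6v1a, of the acidifying pump, stood at 41.8, 43.9 and 44.3 TPM in the Ad-GFP libraries and 9.88, 10.7 and 10.2 TPM in the Ad-shJP2 libraries, and the autophagy receptor Sqstm1 rose by 0.48.

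RNA-binding and transport proteins were divided. Of 31 hnRNP and SR proteins 9 rose and 15 fell, against 22.8% and 37.9% of all genes. Their median was -0.07 (0.03 under median-of-ratios scaling). The splicing factors Srsf7 (0.95), Srsf4 (0.84) and Srsf2 (0.59) rose most, and Hnrnpu (-1.58), Hnrnpr (-1.23) and Hnrnpa3 (-1.11) fell most. Importins, exportins and nucleoporins had 14 rises and 16 falls of 40, with the falls near the share of all genes. These counts were 20 and 6 after the GC and length correction. Their median was -0.07 as deposited, 0.03 under median-of-ratios scaling, 0.04 under quantile normalization and 0.16 after the correction.

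Ribosomal protein genes rose slightly as deposited, and after the correction their falls were at the share of all genes. Of 50 cytosolic ribosomal proteins 27 rose and 1 fell (median 0.15), and 39 rose with median-of-ratios scaling. After the GC and length correction 7 rose and 21 fell, where 19% of all genes rose and 41.6% fell, and the median turned to -0.09. Ribosomal protein genes have many processed copies that can share reads. Of 37 initiation factors 19 rose and 12 fell, 11 and 10 after the correction. Eif2s2, a subunit of the factor that Eif2ak2 phosphorylates, fell by 1.46, and Eif6 rose by 0.58. Of 20 aminoacyl-tRNA synthetases 12 rose and 6 fell (median 0.24), 8 and 7 after the correction, with Cars (0.49) highest and Dars (-1.40) lowest. Mitochondrial ribosomal proteins had 18 rises and 3 falls of 44.

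RNAs made from the mitochondrial genome fell in nearly every member tested. Of 14 tested mitochondrial RNAs 13 fell (median -0.89), and the exception was mt-Nd3 (-0.33, adjusted p = 0.7). mt-Nd4, a subunit of complex I, stood at 767, 787 and 789 TPM in the Ad-GFP libraries and 219, 204 and 236 TPM in the Ad-shJP2 libraries. mt-Nd5 stood at 123, 121 and 122 TPM in the Ad-GFP libraries and 36.1, 28.6 and 34.9 TPM in the Ad-shJP2 libraries, and mt-Nd4l fell by 1.91. All hairpin libraries were below all controls for these subunits. After the GC and length correction 11 fell, mt-Co3 went from -0.24 to 0.00 and mt-Rnr2 from -0.27 to 0.07. Of 41 nuclear genes of the respiratory chain 15 rose and 3 fell (median 0.04), 26 rose with median-of-ratios scaling, but 9 and 21 after the correction, with the median at -0.10. The difference between these lists was not tested.

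Sterol synthesis fell, while glycolysis, antioxidant and serine genes rose more often than they fell. Of 26 genes of cholesterol synthesis 20 fell and the other 6 did not pass (median -0.43), with 22 lower and 1 higher after the GC and length correction. Hmgcs1, which makes HMG-CoA, stood at 10.4, 12.4 and 11.1 TPM in the Ad-GFP libraries and 2.18, 1.77 and 2.103 TPM in the Ad-shJP2 libraries. Hsd17b7 and Idi1 fell by 2.19 and 1.26. Of 21 genes of fatty acid oxidation 15 fell and 2 rose, with Acadm (-0.71) lowest. Of 28 glycolysis and hypoxia genes 15 rose and 8 fell (median 0.26). The lactate exporter Slc16a3 rose by 0.97 and the glucose transporter Slc2a1 by 0.72, while the messages of the oxygen-regulated factors Hif1a and Epas1 fell by 1.52 and 1.05.

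Of 24 NRF2 and antioxidant genes 13 rose and 6 fell. Gsr (0.86), Hmox1 (0.84) and Nqo1 (0.57) were highest, and Nfe2l2, the gene of NRF2 itself, fell by 0.81. Of 14 serine and one-carbon genes 9 rose and 1 fell (median 0.36). Shmt1, the cytosolic enzyme that passes carbon from serine to folate, stood at 4.07, 3.503 and 3.67 TPM in the Ad-GFP libraries and 12.7, 13.3 and 13.2 TPM in the Ad-shJP2 libraries. Psat1, of serine synthesis, rose by 0.85, and the mitochondrial enzyme Aldh1l2 fell by 0.94. Phgdh, the first enzyme of serine synthesis, did not pass (0.00).

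Both tested genes of the Y-linked list and their X-linked relatives fell. Eif2s3y, an initiation factor subunit, stood at 24.8, 12.9 and 18.6 TPM in the Ad-GFP libraries and 2.26, 1.84 and 3.28 TPM in the Ad-shJP2 libraries, and Kdm5d, a histone demethylase that could be tested only through its Ad-GFP values, fell by 0.87. Of all 6 tested genes of the Y chromosome, numbered models and pseudogenes included, 50% fell and 16.7% rose. The controls of Eif2s3y varied among themselves, but the highest hairpin library was below the lowest control. The X-linked relatives Eif2s3x (-1.01), Ddx3x (-1.21) and Kdm5c (-0.24) fell too. Ddx3y and Uty were under the level for testing, with group means of 0.927 and 0.573 TPM and of 0.357 and 0.101 TPM. All cells came from male mice, and relatives on X and Y can share reads.

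Abundant long noncoding RNAs mostly rose. Of 10 tested abundant noncoding RNAs 8 rose and 2 fell. Snhg1, a host of small nucleolar RNAs, stood at 34.9, 39.7 and 38.5 TPM in the Ad-GFP libraries and 121, 117 and 126 TPM in the Ad-shJP2 libraries, with no overlap, and Snhg12 and Epb41l4aos rose by 0.85 and 0.88. Mir22hg, the host of a microRNA, stood at 17.4, 17.1 and 16.6 TPM in the Ad-GFP libraries and 3.11, 2.29 and 3.97 TPM in the Ad-shJP2 libraries, and Norad fell by 0.93. Of RNAs kept in the nucleus, Neat1 rose (0.79), Meg3 fell (-0.87) and Malat1 did not pass (-0.32). Housekeeping genes gave 5 rises and 3 falls of 13 (median 0.06), with Gapdh at 0.34 and Ywhaz at -0.28.

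**Figure D4:**
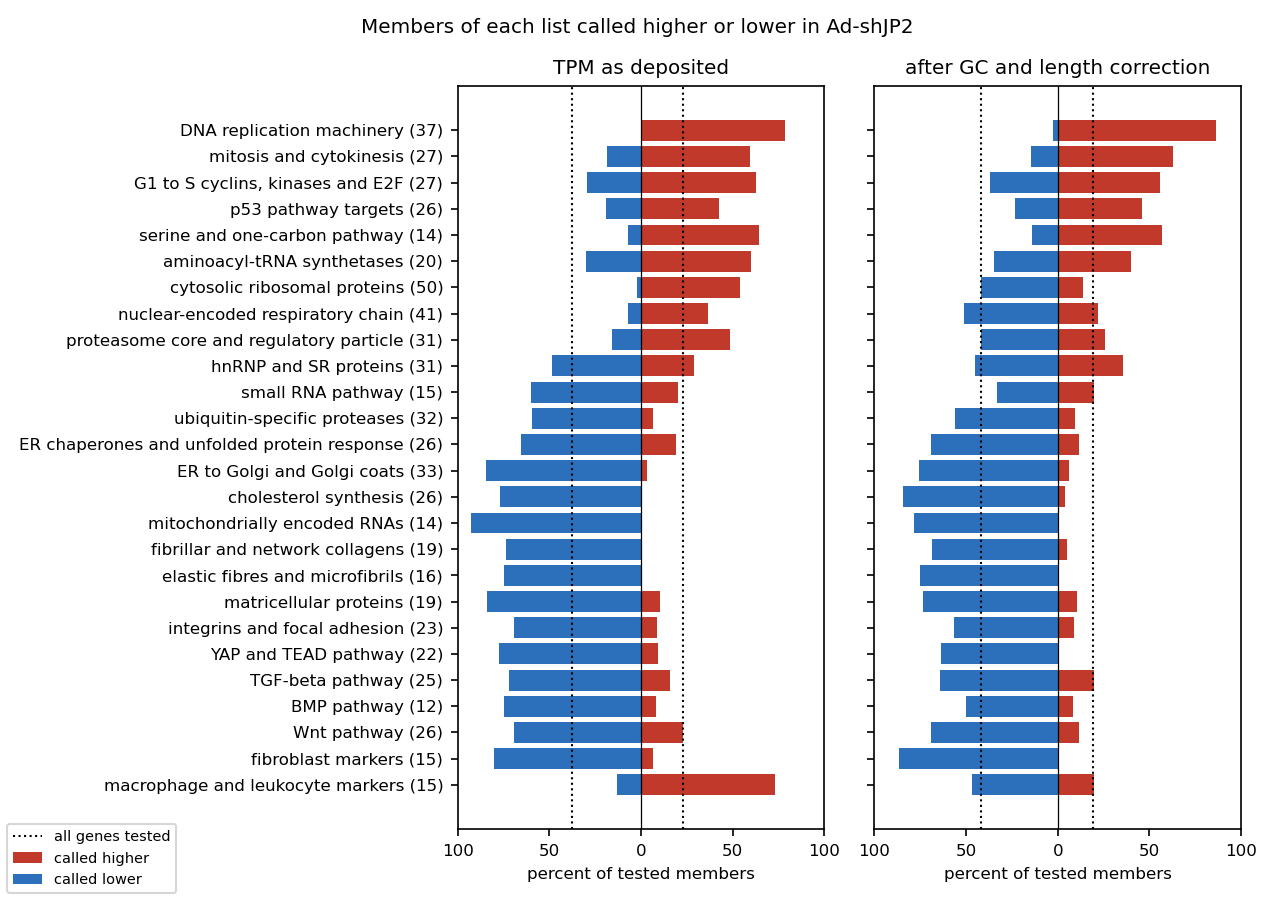
Share of tested members of the gene lists named on the axis that rose (right of 0) or fell (left of 0), in percent, from the deposited TPM in the left panel and after the GC and length correction in the right panel. Dotted lines mark the shares over all genes tested. Replication genes lie far to the right in both panels and the ER to Golgi genes, collagens and cholesterol genes far to the left, while ribosomal proteins and macrophage markers change sides.

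The calls followed transcript length and base composition. In the quintile of genes with the lowest GC content (31.0 to 44.7%), 59.2% fell and 9.80% rose (median -0.43). In the quintile with the highest, 24.6% fell and 33.2% rose (median 0.04). The longest quintile (3490 to 17302 bases) had 60.6% lower and 13.1% higher, and the shortest (93 to 938 bases) 16.6% lower and 22.1% higher. Within the longest quintile, falls were more frequent at the lowest GC content than at the highest. Of 502 genes in both the longest and the lowest-GC quintile 76.5% fell and 5.58% rose (median -0.72), and of 462 genes in both the longest and the highest-GC quintile 32.9% fell and 27.1% rose (median -0.02). Protein-coding genes had a median of -0.12, with 42.1% lower.

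After a correction of each library for these properties 2562 of 13469 genes rose (19%) and 5599 fell (41.6%). Of 8208 calls with a known GC content, 6167 passed in the same direction and 201 passed in the opposite direction. Of 1946 called genes with at least 2-fold differences, 1808 kept their direction and passed. Among genes described above, the log2 difference of Itgb1 became -0.96, of Stim2 -1.54, of Sec23a -1.14, of Jak1 -1.04 and of mt-Nd4 -1.50, and that of Cxcl10 4.37, of Isg15 2.92, of Ccne1 2.29, of Mcm6 1.38 and of Timp3 -1.87. The falls of Adamts5, Tgfbr1, Slc8a1, Ereg and Uhmk1 became smaller, at -1.65, -0.62, -0.40, -1.07 and -1.71. Smaller differences given above no longer passed after the correction for Myl9, Ywhaz, Tead4, Relb, Rela, Orai2, Kdm5c, Ilk, Eif2ak2, Ect2, Gapdh, Polk and B2m (limma adjusted p from 0.0574 to 0.871). The part of length and base composition in the falls was not tested.

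**Figure D5:**
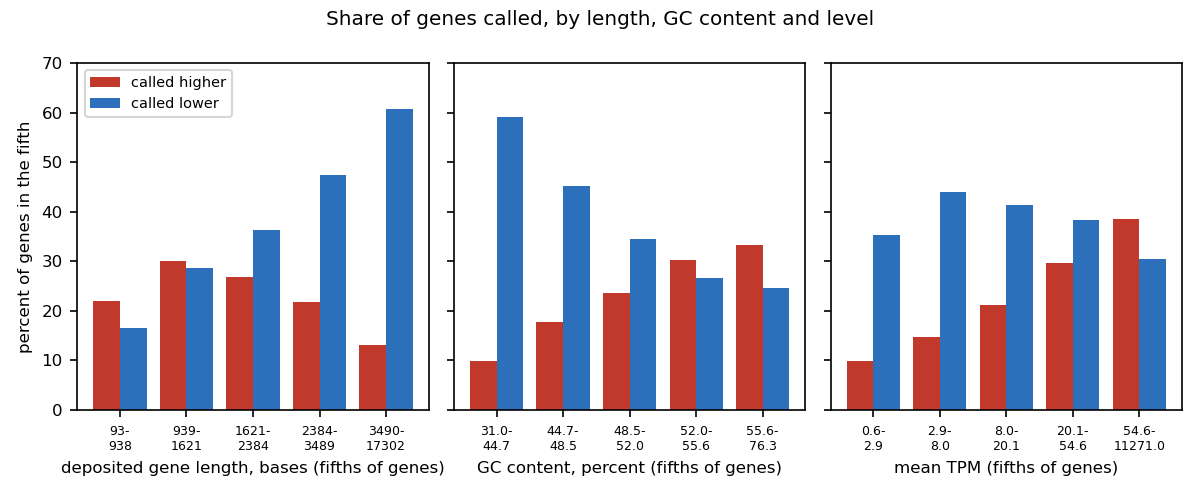
Share of tested genes that rose or fell, in percent, in quintiles of gene length, of GC content and of mean TPM, from the lowest quintile to the highest. Falls grow from 16.6% to 60.6% with length and shrink from 59.2% to 24.6% with GC content.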

How the data were processed

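RNA with poly(A) tails was measured in 9 libraries, of which the 3 Ad-shJP2 and 3 Ad-GFP libraries are compared. The values are the authors' deposited TPM per gene. Build GRCm39 and the tools DESeq2, Salmon and DRAGEN appear in the submitters' processing notes, with no role or version given in the sources used here. Genes with at least 1 TPM in at least 3 of the 6 libraries were tested on log2(TPM + 1) with limma 3.58.1 (trend; R 4.3.3), fitted over all 9 libraries as 3 group means, with Benjamini-Hochberg adjustment over 13624 genes and a threshold of 0.05. The fit was tried on simulated data of this size, with few genes changed and independent normal noise. There 74% of genes changed by 0.5 (log2) and 98% of those changed by 2 were recovered. In the real data 60.7% of genes passed and calls followed length and GC content, so these rates may not carry over.

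The GC and length correction removed a spline on GC content and gene length from each library. GC content came from GENCODE M21 (GRCm38), matched by gene identifier for 98.86% of tested genes, and depth was read from the steps between low values, which is approximate.

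Genes named are the 14 largest rises and falls (adjusted p under 0.05, a mean of at least 5 TPM in the higher group, no overlap, no numbered gene model), up to 3 rises and 3 falls a list, the junctophilins and the Y-linked genes. Rigi, Mavs, Irf1, Irf9, Ifnar2, Tyk2, Tap1, Ccl2, Ago2, Drosha, E2f7, E2f8, Ccnd1, Ccnd3, Cdc6, Mcm6, Smad7, Bmpr2, Stim1, Atp2a2, Phgdh, Malat1, mt-Nd3, mt-Co3 and mt-Rnr2 were chosen after their values were seen. The comparison and the gene lists were chosen with earlier results of these data known. The alternatives were another pseudocount, other filters, 2 other scalings, the 6 libraries alone, the GC and length correction, a replicate block and leaving out each library.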

Additional observations from a re-analysis of the deposited data

How the results depend on the processing

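The count of genes called, 8270, was 8258 with a pseudocount of 0.1, 8464 without a filter, 6311 with a mean of at least 5 TPM, 8178 in the 6 libraries alone, 8306 with median-of-ratios scaling, 8120 with quantile normalization, 8161 after the GC and length correction, and 7574 to 8031 leaving out 1 library. Higher and lower calls were 4040 and 4266 with median-of-ratios scaling and 4277 and 3843 with quantile normalization, against 3103 and 5167. The Jph2 difference passed in the 6 libraries alone (-0.1129) and with quantile normalization (-0.131), and ranged from -0.09 to -0.13 leaving out 1 library. Of 327 named genes with a call, 288 kept it after the GC and length correction, 31 no longer passed and 8 turned: Tead2 (-0.1197), Vegfb (-0.1017), Chac1 (-0.1197), Rps6 (-0.02682), Cox7a2 (-0.05315), Etfb (-0.2364), H1f2 (-0.05191) and Thy1 (-0.03489). With median-of-ratios scaling 320 kept it and Rpl4 turned (0.04561). The causes were not tested. Of 132 counts of list members 37 moved by over 1.5 times after the GC and length correction, 21 with median-of-ratios scaling, 20 with a mean of at least 5 TPM, 16 with quantile normalization, 5 without a filter, 4 in the 6 libraries alone and 0 with the other pseudocount. Depth limits the interferon genes and other messages near 0.1 TPM, more so in the shallower Ad-shJP2 libraries.

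Replicate numbers did not pair the libraries: deviations of same-numbered libraries correlated at -0.016, -0.084 and 0.026. With the replicate number as a block 8068 genes were called, 3018 higher and 5050 lower, and 322 of 327 named genes kept their call.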

Other observations

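The Ad-JP2 libraries, which share their controls with the comparison above, are given here for a few of its largest rises and falls. These genes were picked by no set rule, and larger falls such as Arfip1 and Il1rap are not shown. Cxcl10 stood at 0.79, 1.46 and 1.33 TPM in Ad-JP2, against means of 0.791 TPM in Ad-GFP and 37.2 TPM in Ad-shJP2. Isg15 stood at 61.5, 62.5 and 59.98 TPM, against 35.6 and 336 TPM. Ccne1 stood at 20.4, 22.7 and 24.2 TPM, against 22.9 and 134 TPM. For Timp3 the Ad-JP2 values were 327, 328 and 329 TPM, against 217 and 45.5 TPM, and for F2r they were 205, 209.6 and 203 TPM, against 111 and 19.2 TPM. Jph2 itself stood at 737, 691 and 637 TPM in Ad-JP2.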
